A study of Rattus norvegicus with 6 samples.

Results

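Serpins are a family of protease inhibitors, and many of them act on serine proteases, enzymes that cut proteins with a serine in the active site. In the inner medulla of the rat kidney, which holds the last stretch of the collecting ducts, 64 genes of these families were measured. They were the genes whose symbol begins with Serpin and a clade letter from a to i (without the collagen chaperone Serpinh1), Spint, Prss or Tmprss, with St14, Hpn, Plau, Plat and Plaur added by name. The 64 genes were read by 75 of the 31042 probe sets tested, and the brightest probe set on average stood for each gene, as for all 14217 genes with a symbol.

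RNA came from male Sprague-Dawley rats given 1 mg furosemide, a loop diuretic, by intraperitoneal injection 30 min before death, and all 6 preparations share that treatment. Both fractions come from inner medulla treated with hyaluronidase and collagenase B (37 °C, 75 min). Slow spins pelleted mostly collecting duct cells of the inner medulla (IMCD, 3 arrays), while cells that stayed in suspension make up the nonIMCD fraction (3 arrays). IMCD replicate 1 is labelled as from rats aged 6 weeks, and the remaining 5 arrays as from rats aged 10 weeks. The study used 7 rats, and the sources used here do not give how many were pooled per array, so the p-values measure only the spread between these preparations.

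Serine proteases of epithelia are made as inactive precursors, held at the cell surface or secreted, and kept in check by Kunitz inhibitors and serpins. A serpin offers a bait loop, and the protease that cuts it is trapped with the inhibitor. In the collecting duct, proteases of this kind are best known for cutting subunits of the epithelial sodium channel, which raises its activity, while urokinase is known for its release into the urine.

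Intensities are the deposited values, on a linear scale. The array median was 270.3 to 273 in IMCD and 330.1 to 341 in nonIMCD. The highest of 3 negative control probe sets on any array was 78.4, which serves here as the bound of dim signal. The control transcripts' 3' to 5' signal ratio, on the log2 scale, was 1.35 ± 0.14 in nonIMCD against 0.69 ± 0.03 in IMCD (SD, n = 3), a difference in RNA quality that went with every difference between the fractions below. Marker genes moved with the fractions too. Of 10 collecting duct principal cell markers 9 were higher in IMCD, and their summed intensity was 228405 to 245211 there against 109500 to 142679. Lower in IMCD were 11 of 12 leukocyte markers (4142 to 5919 against 133440 to 136574), 9 of 9 endothelial markers (14229 to 18008 against 68930 to 75787) and 5 of 10 interstitial and pericyte markers (3 after quantile normalization; 4979 to 5359 against 33535 to 37202). Their part in the differences was not tested.

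The protease and inhibitor genes divided evenly between the fractions. Of 64 members 10 were higher in IMCD, 10 were lower and 44 did not pass the threshold (limma, Benjamini-Hochberg adjusted p under 0.05 over all probe sets). Over all genes 10.0% were higher and 15.7% lower, against 15.6% and 15.6% of the members. The largest differences were those of Serpina11, Serpina3c and the urokinase receptor Plaur on the IMCD side, and of Serpina10, Prss35 and urokinase itself (Plau) on the nonIMCD side. The place of Serpina11 and Serpina3c rests on dim nonIMCD values: with intensities floored at the highest negative control they differed by 2.27 and 1.70, below Plaur. These are bulk preparations, in which fewer cells of a type and less RNA per cell cannot be told apart.

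Differences were computed on log2(intensity + 16), as IMCD minus nonIMCD. The median log2 difference was 0.03 over the members and -0.09 over all genes. Of the 64 members 16 were called and differed at least 2-fold, 8 in each direction, against 14.5% of all genes. The arrays of the fractions did not overlap for 28 members (43.8%), against 48.7% of all genes. All 20 called members were among these 28. The even split depended on the scaling: 13 were higher and 8 lower when every array was centred on its own median, and 9 and 8 after quantile normalization. Centring moved the median of all probe sets up by 0.29 and quantile normalization by 0.15. The higher count was also smaller with 1 array left out. It was 4, 8 and 5 without IMCD replicates 1, 2 and 3, and 4, 6 and 7 without nonIMCD replicates 1, 2 and 3. Over all probe sets the higher count fell too, from 2663 to between 1537 and 2248. A fit with fewer arrays has less power, so these counts do not separate that from dependence on 1 array.

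**Figure D1:**
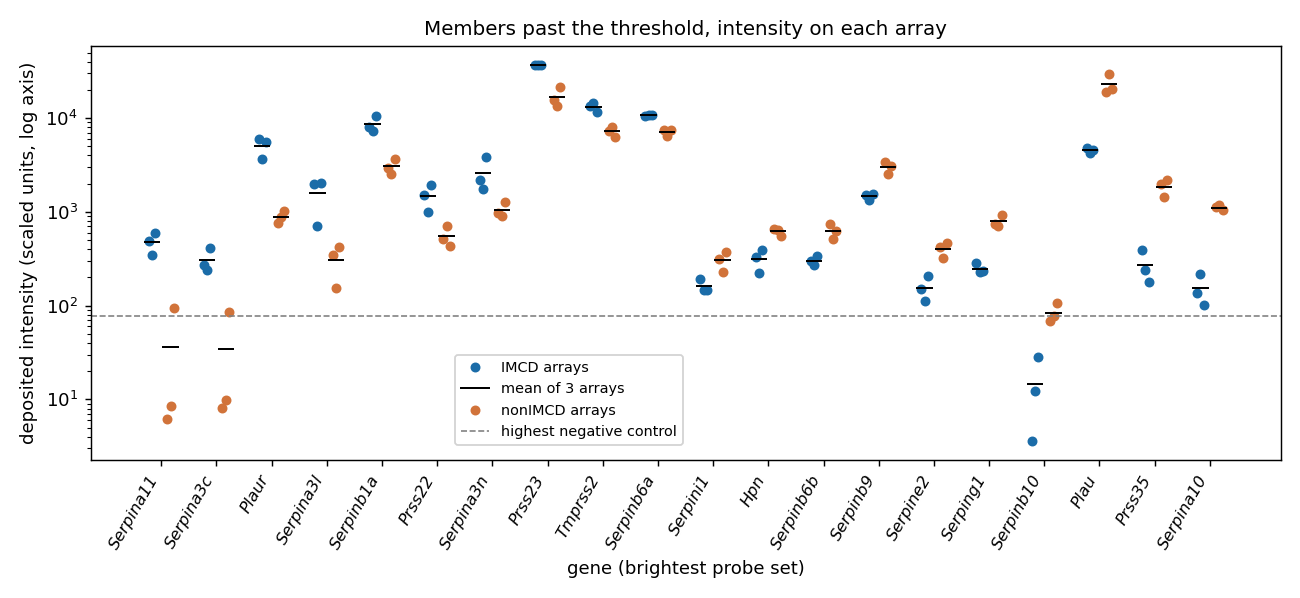
Deposited intensity on a log axis for the 20 members past the threshold, ordered by log2 difference, with 3 IMCD arrays (blue) and 3 nonIMCD arrays (orange) per gene and bars at the means. The fractions do not overlap for any of the 20, and Serpina11, Serpina3c and Serpinb10 fall under the highest negative control (78.4, dashed) on some arrays.

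The plasminogen activator system turned in opposite directions for the receptor and its ligand. This system converts plasminogen to the fibrin-cutting protease plasmin, and Plaur holds urokinase at the cell surface. Plaur had 5916, 3691 and 5593 on IMCD replicates 1 to 3 and 759, 874 and 1033 on the nonIMCD arrays. Every IMCD array was above every nonIMCD array, and the mean was 5.70 times as bright (log2 difference 2.47 ± 0.23, SE, adjusted p = 0.00157). A dimmer Plaur probe set gave 3.08 ± 0.32 (adjusted p = 0.00221). Its nonIMCD arrays were all under the highest negative control, so, with the IMCD mean set against that control, it was at least 2.63-fold higher in IMCD. By its design the brighter set may also bind related transcripts.

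Plau, the gene of urokinase, was the reverse. It had 4770, 4232 and 4608 on the IMCD arrays and 18916, 29563 and 20353 on the nonIMCD arrays. The IMCD arrays lay close together and the nonIMCD arrays were 5.06 times as bright on average (-2.31 ± 0.20, SE, adjusted p = 0.00127). A further Plau probe set gave -2.14 ± 0.24 (adjusted p = 0.00266).

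Plat, the tissue-type activator, had 13593, 10027 and 9829 in IMCD and 13409, 13391 and 16352 in nonIMCD. Its arrays overlapped, because IMCD replicate 1 was as bright as the nonIMCD arrays, and the difference did not pass (-0.38 ± 0.18, SE, adjusted p = 0.208). It passed only with an intensity trend in the variance model (adjusted p = 0.0482) among the 15 alternatives.

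Serpine2, or protease nexin-1, which blocks urokinase, thrombin and the epithelial protease prostasin, had 151, 111 and 206 in IMCD and 427, 322 and 464 in nonIMCD. It was lower in IMCD on every array (-1.31 ± 0.25, SE, adjusted p = 0.0175). Leaving out 1 array ended the call in 3 cases: IMCD replicate 1 (-1.31, adjusted p = 0.0587) and nonIMCD replicates 1 (-1.27, 0.0621) and 3 (-1.21, 0.0539). Serpini1, or neuroserpin, an inhibitor of the tissue-type activator, had 194, 148 and 148 against 313, 230 and 378, also without overlap (-0.83 ± 0.22, SE, adjusted p = 0.0452). The call held under 4 of 15 alternatives. With 1 array left out it held only without nonIMCD replicate 2. Without IMCD replicates 1, 2 and 3 adjusted p was 0.0685, 0.124 and 0.123, and without nonIMCD replicates 1 and 3 it was 0.122 and 0.0991. It also failed after quantile normalization (-0.54, adjusted p = 0.151) or centring (-0.54, adjusted p = 0.125), and a dimmer Serpini1 probe set gave -0.54 (adjusted p = 0.406).

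Serpinf2, the plasmin inhibitor alpha-2-antiplasmin, had 13.3 to 65.0 in IMCD and 38.5 to 180 in nonIMCD (-0.99, adjusted p = 0.30). Serpine3 (-0.37, adjusted p = 0.156) and Serpinb2, an inhibitor of urokinase (-0.56, adjusted p = 0.133), did not pass, and Serpinb2 was under the highest negative control on all arrays. In all, 1 of the 8 measured members of the system was higher, 3 were lower and 4 missed the threshold, with a median of -0.70. With median centring or quantile normalization 1 was higher and 2 were lower, and without IMCD replicate 1 or nonIMCD replicate 1 or 3 only 1 was lower.

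Among the membrane-bound and secreted epithelial proteases 2 of 6 measured members were higher in IMCD (Tmprss2 and Prss22), 1 was lower (Hpn) and 3 missed the threshold, with a median log2 difference of 0.30. With median centring 4 were higher and 0 lower, and after quantile normalization 2 and 0. All 3 calls were lost without IMCD replicate 1, and likewise without nonIMCD replicate 1. Tmprss2, a protease anchored by a transmembrane helix, had 13602, 14522 and 11560 in IMCD and 7345, 8076 and 6299 in nonIMCD. The fractions were apart by 0.87 ± 0.16 (SE, adjusted p = 0.0147). A second Tmprss2 probe set had 4877, 5030 and 4372 against 984, 1177 and 1456, a larger difference of 1.98 ± 0.18 (adjusted p = 0.0014). The brighter set missed the threshold when IMCD replicate 1 (0.85, adjusted p = 0.0556) or 2 (0.80, 0.0515) was dropped, and when nonIMCD replicate 1 was (0.88, 0.0505).

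Prss22, a secreted tryptase of epithelia, had 1512, 997 and 1924 in IMCD and 518, 700 and 428 in nonIMCD. All IMCD arrays were brighter, with a wide spread (1.38 ± 0.30, SE, adjusted p = 0.0251). It did not pass when IMCD replicate 1 (1.34, adjusted p = 0.0804) or 3 (1.17, 0.065) or nonIMCD replicate 1 (1.35, 0.0785) or 3 (1.22, 0.0695) was dropped.

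Prss8, or prostasin, which is tethered by a lipid anchor, had 4560, 4427 and 4672 in IMCD and 3637, 4132 and 4046 in nonIMCD. The fractions did not overlap, yet the difference did not pass (0.21 ± 0.12, SE, adjusted p = 0.273). St14, or matriptase, which activates prostasin, had 9031, 8860 and 8770 against 7255, 6362 and 6621. It too was without overlap and just missed the threshold (0.40 ± 0.12, SE, adjusted p = 0.0638). Both passed with median centring (Prss8 0.50, adjusted p = 0.0287, and St14 0.69, adjusted p = 0.0114). After quantile normalization neither did. Among the 15 alternatives Prss8 passed with median centring only. St14 also passed with a pseudocount of 64, without dim probe sets, with an intensity trend and with the floor, at adjusted p from 0.00363 to 0.0455.

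Hpn, or hepsin, a transmembrane protease known from the thick ascending limb where it cuts uromodulin, went the other way. It had 332, 222 and 390 in IMCD and 664, 634 and 555 in nonIMCD (-0.97 ± 0.23, SE, adjusted p = 0.0311). Of 6 thick ascending limb markers 3 were lower in IMCD and 3 missed the threshold. Their sum was 1900 to 6315 in IMCD and 7139 to 10700 in nonIMCD. Of 6 proximal tubule markers 2 were lower and 4 missed it (626 to 705 against 3696 to 5058). Of 5 thin limb markers 3 were lower and 2 missed it (80814 to 87941 against 138984 to 181188). The part of these markers in the Hpn difference was not tested. Hpn kept its call under 8 of 15 alternatives and missed the threshold with median centring (-0.68, adjusted p = 0.0826). Quantile normalization had the same effect (-0.72, adjusted p = 0.0773). It also lost it without IMCD replicate 1 (-1.03, adjusted p = 0.0764) or any of nonIMCD replicates 1, 2 and 3 (-0.92, -0.95 and -1.04; adjusted p = 0.096, 0.0894 and 0.0605). Tmprss11d was at or under the highest negative control on all arrays (-0.66, adjusted p = 0.195) and passed without nonIMCD replicate 3 only (adjusted p = 0.0265).

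Neither of the Kunitz inhibitors Spint1 and Spint2, which block matriptase and hepsin, passed. Spint2 had 32765, 32716 and 37058 in IMCD and 26491, 29329 and 32503 in nonIMCD (0.22 ± 0.14, SE, adjusted p = 0.323). Spint1 had 3389, 3050 and 3275 against 3660, 4187 and 3398 (-0.21 ± 0.14, SE, adjusted p = 0.339). In each gene the arrays did not overlap, by a narrow margin. The scaling decided what was left: with median centring Spint2 passed (0.51, adjusted p = 0.0402) and Spint1 turned to 0.08 (adjusted p = 0.713).

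**Figure D2:**
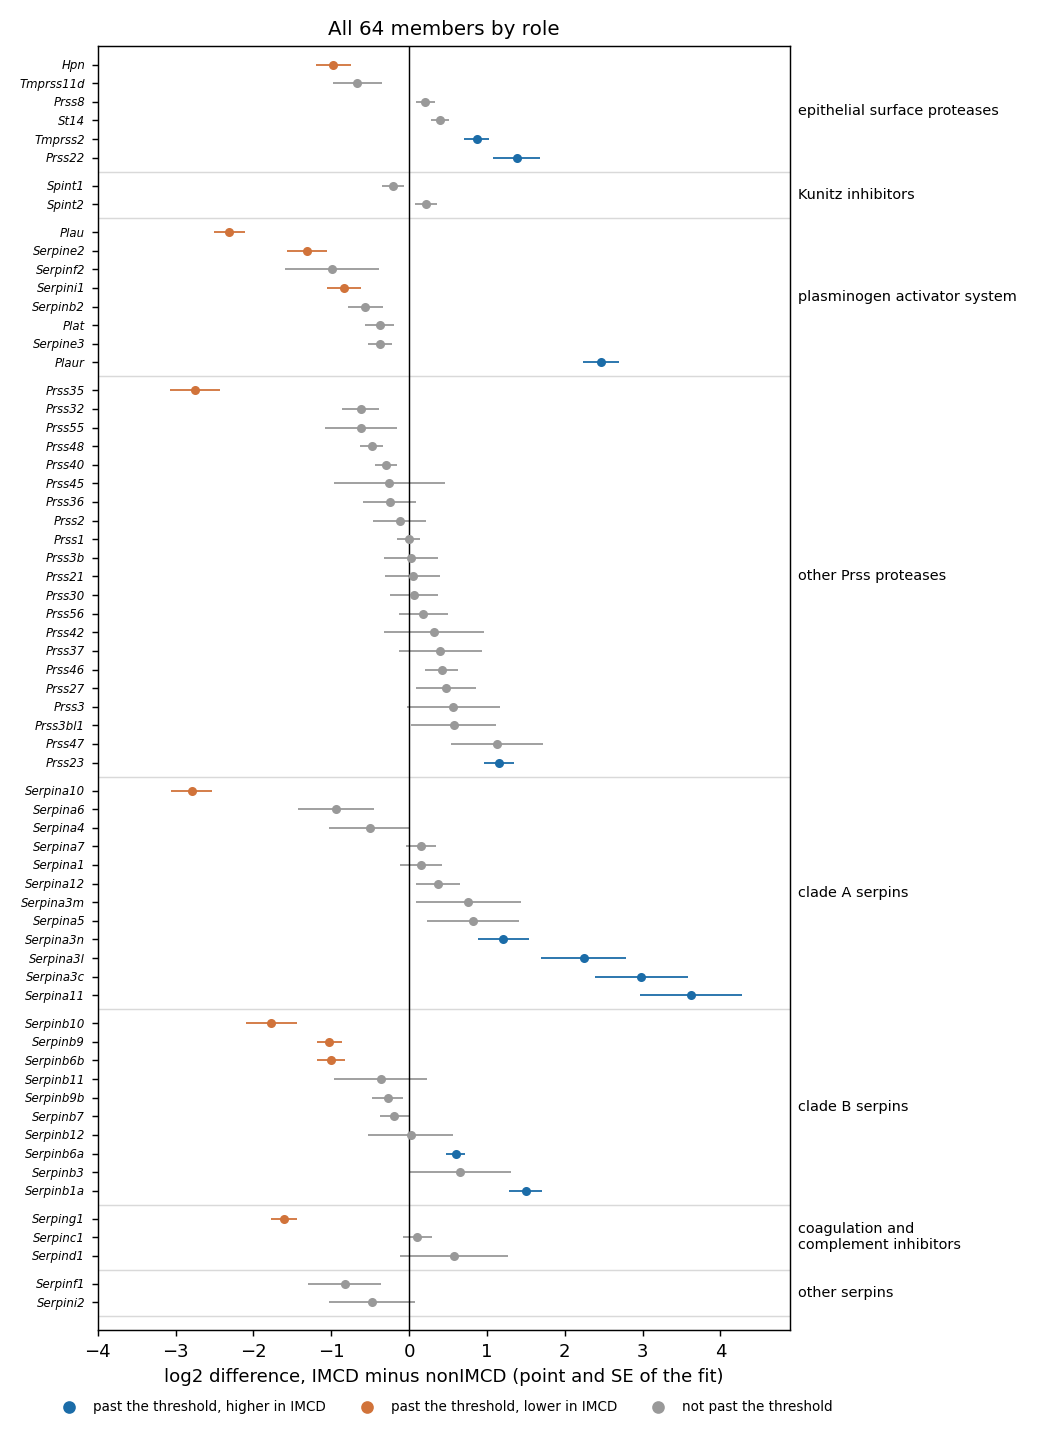
Log2 difference, IMCD minus nonIMCD, with the SE of the fit as bars, for all 64 members grouped by role. Points in blue and orange passed the threshold as higher (10) and lower (10) in IMCD, and the gray points (44) did not; Plaur and Plau lie on opposite sides, and the Kunitz inhibitors lie near 0.

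Among the other 21 Prss genes only Prss23 and Prss35 passed, in opposite directions. Prss23, a secreted protease, had 36542, 37066 and 36951 in IMCD and 15624, 13595 and 21289 in nonIMCD. The IMCD arrays differed by little among themselves and were 2.19 times as bright on average (1.16 ± 0.19, SE, adjusted p = 0.0104). Prss35, a protease-like secreted protein, had 397, 238 and 179 against 1961, 1425 and 2201, a 6.86-fold difference of means toward nonIMCD (-2.76 ± 0.32, SE, adjusted p = 0.00305).

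Of the remaining 19 genes none passed, and 7 did not exceed the highest negative control on any array. Among those 7 were the pancreatic trypsinogens Prss1 and Prss2, with means of 11.5 and 7.15 in IMCD and 11.7 and 9.74 in nonIMCD. Prss48 (-0.48, adjusted p = 0.0755) was also at this level and passed only with a pseudocount of 1 (adjusted p = 0.0267). Prss32 was above it, with 92.6, 84.5 and 153 against 168, 150 and 204 (-0.62, adjusted p = 0.127). It passed only without IMCD replicate 3 (adjusted p = 0.0422).

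Clade A holds secreted serpins known from blood plasma. Of 12 measured genes 4 were higher in IMCD, 1 was lower and 7 missed the threshold, with a median of 0.57. The same counts were found with median centring and quantile normalization. With a pseudocount of 1 there were 3 higher genes, and with the floor at the highest negative control 2. Without IMCD replicate 1 or 3 or nonIMCD replicate 1 or 2 only 1 was higher, and without nonIMCD replicate 3 there were 2. The 4 higher genes were Serpina11 and the Serpina3 relatives Serpina3c, Serpina3l and Serpina3n. Some genes of the Serpina3 group, though not all, are known as acute-phase genes, which inflammatory cytokines induce in liver. The group arose by duplication, its transcripts are close in sequence, and signal from a relative cannot be told apart by these values.

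Serpina11 had 490, 348 and 592 in IMCD and 6.12, 8.47 and 95.1 in nonIMCD. On nonIMCD replicates 1 and 2 it lay under the highest negative control, and only replicate 3 was above it. The difference of 3.62 ± 0.66 (SE, adjusted p = 0.0138) therefore depends on the treatment of dim values: it was 2.27 with a floor at the highest negative control and 4.65 with a pseudocount of 1. It passed under all 15 alternatives, with a highest adjusted p of 0.0495.

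Serpina3c, a rat kallikrein-binding protein gene, had 271, 240 and 412 against 8.10, 9.75 and 85.9, the same form, with nonIMCD replicate 3 the brightest nonIMCD array. Its difference of 2.99 ± 0.60 (SE, adjusted p = 0.0196) fell to 1.70 with the floor. Serpina3l had 1966, 700 and 2056 against 350, 156 and 423. Replicate 2 was the dimmest array of each fraction, and the fractions still did not overlap (2.24 ± 0.55, SE, adjusted p = 0.0358). Serpina3n, an inhibitor of chymotrypsin-like proteases, had 2184, 1736 and 3834 against 982, 903 and 1288 (1.21 ± 0.32, SE, adjusted p = 0.0476). All IMCD arrays were above all nonIMCD arrays.

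The calls of the 3 Serpina3 genes were lost in most fits with 1 array left out. Serpina3l kept its call only without IMCD replicate 2, with adjusted p = 0.108 and 0.102 without IMCD replicates 1 and 3, and 0.081, 0.0894 and 0.0555 without nonIMCD replicates 1, 2 and 3. Serpina3n likewise kept it only without IMCD replicate 2, with adjusted p = 0.101, 0.0644, 0.127, 0.132 and 0.0698 in the same order. Serpina3c lost it without IMCD replicates 1 and 3 (adjusted p = 0.0583 and 0.0639) and nonIMCD replicates 1 and 2 (0.0611 and 0.0648). With the floor at the highest negative control Serpina3l and Serpina3n missed the threshold (adjusted p = 0.0622 and 0.072). Serpina3n also missed it with a pseudocount of 1. The differences kept their sign in each case.

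Serpina10, the protein Z-dependent inhibitor of coagulation factor Xa, was the member with the largest deficit in IMCD. It had 137, 220 and 102 in IMCD and 1122, 1172 and 1039 in nonIMCD, 7.26 times as bright there (-2.80 ± 0.27, SE, adjusted p = 0.00165). The nonIMCD arrays lay within a narrow range far above the IMCD arrays. Serpina1, or alpha-1-antitrypsin, a plasma inhibitor of neutrophil elastase, had 93.2 to 148 in IMCD and 73.4 to 143 in nonIMCD (0.16, adjusted p = 0.729). Serpina6 and Serpina7, the plasma carriers of glucocorticoids and thyroid hormone, and Serpina12 did not exceed the highest negative control on any array. Of 4 liver markers 0 passed (summed intensity 135 to 292 in IMCD and 248 to 270.3 in nonIMCD).

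In the RefSeq gene order of the GRCr8 assembly, Serpina3c, Serpina3l and Serpina3n follow each other directly. Serpina3m stands before them, with other genes between, and did not pass, with 99.8, 127 and 11.8 in IMCD and 23.6, 54.8 and 17.6 in nonIMCD (0.76, adjusted p = 0.48). At the far end of the same group of 11 measured clade A genes stands Serpina10, with the opposite direction. Serpina11 is separated from the higher Serpina3 genes by Serpina12, Serpina4, Serpina5 and Serpina3m, none of which passed.

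**Figure D3:**
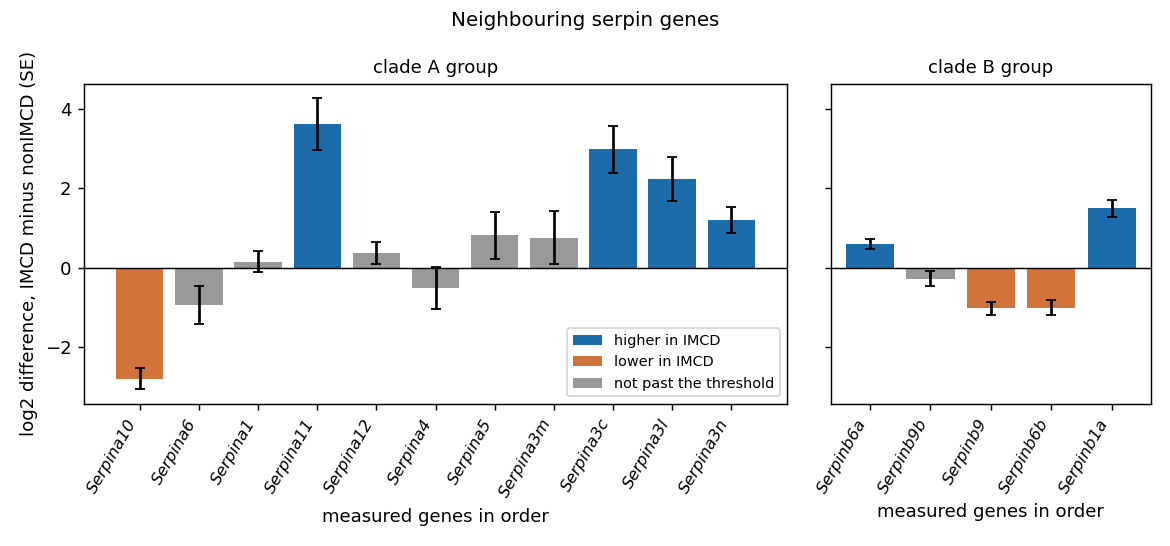
Log2 difference, IMCD minus nonIMCD, with SE bars, for measured neighbouring serpin genes in chromosome order, 11 of clade A (left) and 5 of clade B (right). Serpina3c, Serpina3l and Serpina3n, side by side, are all above 0 (2.99, 2.24 and 1.21), while Serpina10 at the other end is at -2.80; in the clade B group the outer genes Serpinb6a and Serpinb1a are above 0 and Serpinb9 and Serpinb6b between them are below.

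Because these neighbours moved together, their promoters are shown. A window of 300 bases, 250 before to 50 after the annotated start, came from RefSeq (GRCr8) for 49 of the 64 members, 7 higher, 7 lower and 35 not passing. The windows were searched for letters known from binding of STAT factors (TTCNNNGAA), which relay cytokine signals, on both strands. The motifs were chosen with the differences known. STAT letters stood in windows of 4 of the 7 higher genes (Serpina3l, Serpina3n, Serpina11 and Serpinb6a), 0 of the 7 lower genes and 5 of the 35 others. They stood in 8.87% of all 33469 windows, a share per window, while the counts of members are per gene. The higher genes had 8 windows, the lower genes 7 and the others 43. A match is a description of letters and shows no binding.

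The windows of Serpina3n, Serpina3l and Serpina3m are set side by side, 5′ to 3′, with capitals at the STAT letters of Serpina3n and at the place aligned with them in its relatives. They lie at chr6:129088142-129088441 (plus strand), chr6:129062956-129063255 (plus strand) and chr6:128836790-128837089 (minus strand) of GRCr8.
Serpina3n: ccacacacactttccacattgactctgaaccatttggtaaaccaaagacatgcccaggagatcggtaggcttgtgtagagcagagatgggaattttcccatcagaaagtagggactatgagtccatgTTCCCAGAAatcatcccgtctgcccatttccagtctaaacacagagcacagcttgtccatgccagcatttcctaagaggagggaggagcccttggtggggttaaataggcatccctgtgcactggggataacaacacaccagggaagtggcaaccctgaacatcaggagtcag
Serpina3l: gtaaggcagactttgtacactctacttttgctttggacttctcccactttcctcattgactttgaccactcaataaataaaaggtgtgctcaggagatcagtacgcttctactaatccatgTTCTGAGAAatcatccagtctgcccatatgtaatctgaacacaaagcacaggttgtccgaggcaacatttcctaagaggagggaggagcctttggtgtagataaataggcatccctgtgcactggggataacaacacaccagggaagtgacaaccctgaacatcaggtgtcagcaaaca
Serpina3m: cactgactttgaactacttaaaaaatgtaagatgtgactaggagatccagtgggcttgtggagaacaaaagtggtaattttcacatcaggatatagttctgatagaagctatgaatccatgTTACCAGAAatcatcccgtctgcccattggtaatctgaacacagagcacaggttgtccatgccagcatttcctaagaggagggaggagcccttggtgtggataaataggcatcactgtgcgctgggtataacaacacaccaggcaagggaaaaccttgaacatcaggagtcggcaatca
The capitals read TTCCCAGAA in Serpina3n, TTCTGAGAA in Serpina3l and TTACCAGAA in Serpina3m, which is no match. Over the aligned bases the Serpina3n window was 71% identical to that of Serpina3l and 83.1% to that of Serpina3m, so the matches of the duplicated genes are not independent. Serpina3m, without the match, did not pass, which is 1 gene and no test. No window of Serpina3c was used here.

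Serpina11 carries its match close to the start, 14 bases before it. Its window (chr6:128677405-128677704, minus strand, GRCr8) has the STAT letters in capitals.
Serpina11: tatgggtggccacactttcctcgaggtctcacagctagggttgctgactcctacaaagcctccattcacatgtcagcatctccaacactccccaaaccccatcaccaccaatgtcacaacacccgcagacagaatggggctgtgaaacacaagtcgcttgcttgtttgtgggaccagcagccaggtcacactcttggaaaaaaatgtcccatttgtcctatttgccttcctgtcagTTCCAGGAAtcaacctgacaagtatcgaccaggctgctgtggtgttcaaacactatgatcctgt
The Plaur window (chr1:89181113-89181412, plus strand, GRCr8) is shown for the other large difference and has no STAT letters. Its capitals mark TGACTCA, a match to TGANTCA, the letters bound by AP-1 factors, 83 bases before the start.
Plaur: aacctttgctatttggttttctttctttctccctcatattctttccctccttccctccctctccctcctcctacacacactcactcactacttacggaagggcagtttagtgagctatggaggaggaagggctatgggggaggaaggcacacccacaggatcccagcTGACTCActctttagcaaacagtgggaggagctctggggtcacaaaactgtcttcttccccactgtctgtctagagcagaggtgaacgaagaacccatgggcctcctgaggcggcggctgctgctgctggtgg
TGANTCA stood in windows of 1 of 7 higher, 0 of 7 lower and 5 of 35 other members, and in 7.33% of all windows. Letters of NF-kB, the cyclic AMP response element (TGACGTCA) and Grainyhead factors (AACNGGTT) were in 0 of the 7 higher and 0 of the 7 lower genes on either strand, with 5%, 1.83% and 2.1% of all windows. Among the 35 other members NF-kB letters were in 0, the response element in 1 and Grainyhead letters in 1. TATAAA, on the gene's strand, was in 1 of 7 higher genes (Serpinb1a), 0 of 7 lower and 5 of 35 others. It was in 8.8% of all windows. In the printed windows no match overlapped another motif.

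Clade B serpins stay mostly inside cells, where they guard against stray proteases of granules and lysosomes. Of 10 measured genes 2 were higher in IMCD, 3 were lower and 5 missed the threshold, with a median of -0.23 that turned to 0.06 with median centring. After quantile normalization 1 was higher and 3 lower, as without any 1 array but nonIMCD replicate 3. Serpinb1a, an inhibitor of neutrophil elastase, had 8129, 7307 and 10497 in IMCD and 2919, 2567 and 3665 in nonIMCD. It was 2.83 times as bright in IMCD (1.497 ± 0.21, SE, adjusted p = 0.00554), and its dimmer probe set gave 1.93 ± 0.20 (adjusted p = 0.00227). All IMCD arrays were above all nonIMCD arrays.

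Serpinb6a, an inhibitor of cathepsin G, had 10659, 10761 and 10862 against 7478, 6459 and 7420. The IMCD arrays were nearly equal, and the difference was modest (0.60 ± 0.12, SE, adjusted p = 0.0208). It was lost after quantile normalization (0.42, adjusted p = 0.0575), and kept with 1 array left out only without nonIMCD replicate 3. Without IMCD replicates 1, 2 and 3 adjusted p was 0.0685, 0.0662 and 0.0644, and without nonIMCD replicates 1 and 2 it was 0.0547 and 0.058.

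Serpinb9, which protects cytotoxic and antigen-presenting cells from granzyme B, had 1527, 1346 and 1535 in IMCD and 3424, 2556 and 3082 in nonIMCD (-1.02 ± 0.16, SE, adjusted p = 0.00782). Its other probe set gave -1.09 ± 0.12 (adjusted p = 0.00264). Serpinb6b, a close relative of Serpinb6a, had 300, 269 and 340 against 747, 518 and 618 (-1.004 ± 0.18, SE, adjusted p = 0.0136). Neither gene's arrays overlapped. Serpinb10, known from blood-forming cells, had 3.58, 12.3 and 28.3 against 68.6, 78.0 and 106 (-1.77 ± 0.33, SE, adjusted p = 0.0149). All its IMCD arrays and 2 of its nonIMCD arrays were under the highest negative control, and with values floored there the difference was -0.12 (adjusted p = 0.541).

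Like the lower clade B genes, 11 of 12 leukocyte markers were lower in IMCD, Cd3e being the exception (adjusted p = 0.149). The same was true of 9 of 9 endothelial markers and 5 of 10 interstitial and pericyte markers. The part of any of these markers in the clade B differences was not tested. Serpinb6a, Serpinb9b, Serpinb9, Serpinb6b and Serpinb1a lie in this order on 1 chromosome, with other genes between some of them. The higher pair flanks the lower pair, and Serpinb9b was under the highest negative control on all arrays. In another group on 1 chromosome, Serpinb10 was the gene that passed, while Serpinb12, Serpinb3, Serpinb11, Serpinb7 and Serpinb2 did not (differences of 0.02, 0.65, -0.36, -0.19 and -0.56).

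Among the inhibitors of coagulation and complement 1 of 3 passed. Serping1, the C1 inhibitor of complement and of plasma kallikrein, had 285, 230 and 233 in IMCD and 747, 711 and 921 in nonIMCD. The nonIMCD arrays were all brighter (-1.61 ± 0.16, SE, adjusted p = 0.00197). Serpinc1, or antithrombin, was under the highest negative control on all arrays, and Serpind1, or heparin cofactor II, on 5 of 6 arrays (0.11 and 0.57, adjusted p = 0.735 and 0.61). Serpinf1 (-0.83, adjusted p = 0.274) and Serpini2 (-0.48, adjusted p = 0.591) did not pass.

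Detection set a limit for many members. Of 64 genes 16 did not exceed the highest negative control on any array, and 27 lay above it on all 6. Of those 27 genes 17 passed, and the other 3 called genes were Serpina11, Serpina3c and Serpinb10. By mean log2 value 33 members were above the highest negative control and 19 of them passed, against 3495 of 11668 among all genes. Of the 9 members with more than 1 probe set, 5 had all of them called in 1 direction (Plau, Plaur, Serpinb1a, Serpinb9 and Tmprss2).

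Genes around these proteases were counted as lists. Of 16 measured epithelial substrates and partners 8 were higher in IMCD, 0 lower and 8 missed the threshold, with a median of 0.63. The higher count was 4 without IMCD replicate 2 and 5 without IMCD replicate 1 or 3. The largest were those of the sodium channel subunits Scnn1g (2.48), Scnn1b (1.67) and Scnn1a (1.24), and of Cdh1, or E-cadherin (1.12; adjusted p = 0.000878, 0.0035, 0.0155 and 0.00205). Scnn1b and Scnn1g are also on the principal cell marker list. The differences of Prss8 and St14, which act on the channel or upstream of it, were 0.21 and 0.40, and whether they differ from those of the channel was not tested. F2rl1, a receptor that matriptase and other proteases cleave, averaged 836.5 ± 40.5 in IMCD against 829.5 ± 81.7 (SD, n = 3; 0.02, adjusted p = 0.949).

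Of 24 partners of plasmin and coagulation 2 were higher, 7 lower and 15 missed the threshold, with a median of -0.45. The higher count was 5 with median centring and 4 after quantile normalization, and 1 without IMCD replicate 1 or 3 or nonIMCD replicate 1 or 2. The lower count was 4 without nonIMCD replicate 1 and 3 without nonIMCD replicate 2. Lower were the thrombin receptor thrombomodulin (Thbd, -2.42, adjusted p = 0.00126), vitronectin (Vtn, -2.34, adjusted p = 0.0211) and the coagulation factor F13a1 (-2.10, adjusted p = 0.00487). F2rl2 was under the highest negative control on all IMCD arrays, so, with its nonIMCD mean set against that control, it was at least 3.16-fold lower in IMCD (adjusted p = 0.024). Tissue factor (F3), which starts coagulation, was higher (1.87, adjusted p = 0.0107). Coagulation factor F5 was the other higher gene (0.63, adjusted p = 0.0301). Plg, the source of plasmin, averaged 75.8 ± 68.5 in IMCD against 111 ± 33.1 (SD, n = 3; -0.86, adjusted p = 0.47).

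Of 23 other serine and kallikrein proteases 10 were lower in IMCD, 0 higher and 13 missed the threshold, with a median of -0.68. The count of lower genes was 7 with median centring and 8 after quantile normalization. It was 6 without IMCD replicate 1 or 2 or nonIMCD replicate 1. Among them were Gzmb (-6.03), a granule protease of cytotoxic lymphocytes, the membrane peptidase Dpp4 (-3.44) and the secreted protease Htra1 (-2.45; adjusted p = 0.000605, 0.000268 and 0.00818). Gzmb was under the highest negative control on 2 of 3 IMCD arrays. Gzma, another granule protease, was under it on all 3, and was at least 6.08-fold lower in IMCD (adjusted p = 0.00322). Of 25 cathepsins and other inhibitors 6 were higher, 6 lower and 13 missed the threshold, with a median of -0.29. The higher count was 3 without IMCD replicate 1 or 3 and 2 without nonIMCD replicate 1 or 2. The macrophage cathepsins Ctss (-3.99) and Ctsz (-3.71), the metalloprotease inhibitor Reck (-1.99) and the leukocyte protease inhibitor Slpi (-1.59) had the largest differences (adjusted p = 0.000181, 0.000204, 0.00113 and 0.00368). Over all genes 25.8% passed in either direction.

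The order of arrays within a fraction was counted over the called members. IMCD replicate 2 was the dimmest IMCD array for 7 of the 10 higher members, against 39.2% of all 1427 higher genes, and for 7 of the 10 lower members, against 32.6% of all 2239 lower genes. Replicate 3 was the brightest IMCD array for 7 of the 10 higher members, against 39.5%. NonIMCD replicate 3 was the brightest nonIMCD array for 7 of the 10 higher members, against 45.2%. Over the 10 lower members IMCD replicate 3 was the brightest IMCD array for 5, and nonIMCD replicate 3 the brightest nonIMCD array for 5. These are counts over genes that share arrays, and carry no test.

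**Figure D4:**
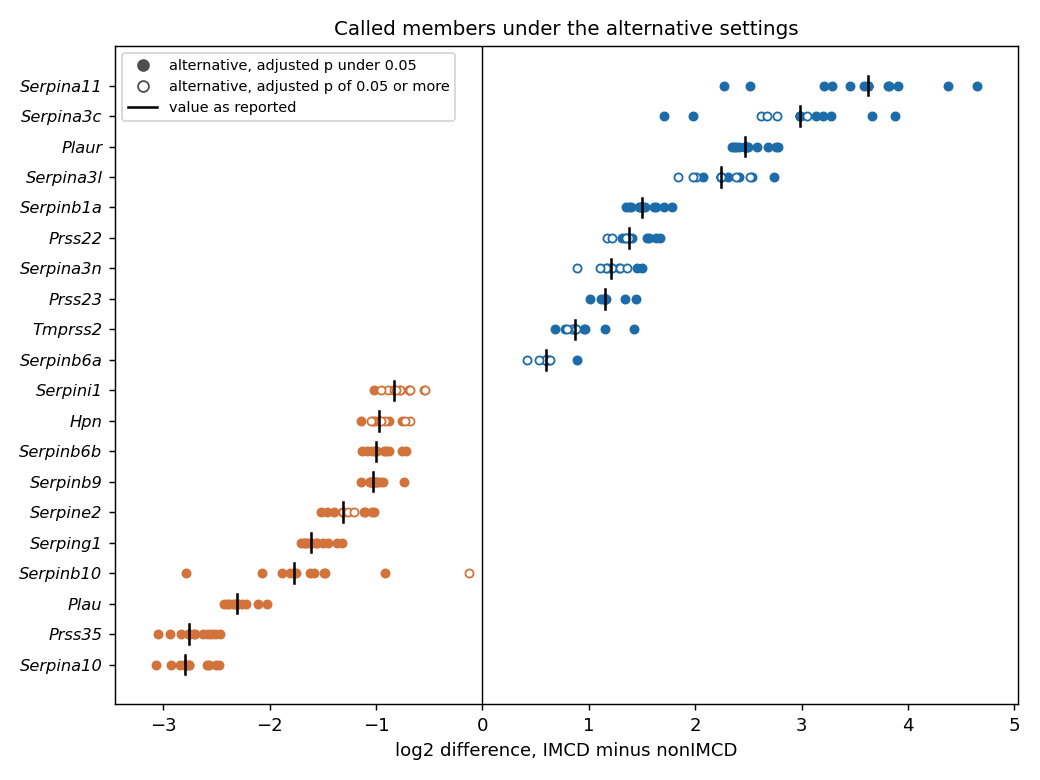
Log2 difference, IMCD minus nonIMCD, of the 20 called members as reported (black ticks) and under up to 15 alternatives (points; filled where adjusted p was under 0.05). Plau, Plaur, Prss23, Prss35, Serpina10, Serpina11, Serpinb1a, Serpinb6b, Serpinb9 and Serping1 are filled throughout, and no point crosses 0.

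Across the alternatives 10 of the 20 called members passed each time, 4 higher (Plaur, Prss23, Serpina11 and Serpinb1a) and 6 lower (Plau, Prss35, Serpina10, Serpinb6b, Serpinb9 and Serping1). Plaur ranged from 2.34 to 2.78 and Plau from -2.43 to -2.02 over the 15 alternatives.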

How the data were processed

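Total RNA of 3 IMCD and 3 nonIMCD preparations was hybridised to Affymetrix Rat 230 2.0 arrays. The deposited intensity values are on a linear scale, scaled by the authors so that the trimmed mean (2% at each end) was 1000.31 to 1000.37 on every array; the software that made them is not stated in any source used. Of 31099 probe sets 57 controls were left out, and 20826 of the 31042 tested had 1 gene symbol, 436 several and 9780 none (platform annotation). The IMCD minus nonIMCD contrast was fitted with lmFit and eBayes (limma 3.58.1, R 4.3.3, two-sided) on log2(intensity + 16), with Benjamini-Hochberg adjustment over all probe sets and a threshold of 0.05; the fit was checked on simulated data. Probe sets of related genes can share signal. The number of arrays limits the precision. The members and lists were chosen with earlier results of these data known. Full values are given for the epithelial proteases and their inhibitors and, in other role groups, for up to 6 members past the threshold with the largest difference, or the largest 1 where none passed; of other lists, up to 4. F3, F5, F2rl1, Plg and members that did not pass were named after their values were seen. Alternatives changed the scaling, pseudocount, filter, variance model, probe set rule, replicate block and arrays; a floor at the highest negative control was added after seeing the data. Figures were drawn with matplotlib 3.10.9 and promoters aligned with Biopython 1.88.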

Additional observations from a re-analysis of the deposited data

How the results depend on the processing

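With 1 array left out, 4313 to 5469 probe sets passed against 6826 with all arrays, 4 to 8 members were higher in IMCD against 10, and 7 to 10 were lower against 10. Of the called probe sets 39% were higher in IMCD, against 67% with median centring and 52.1% after quantile normalization. Among 388 values of 26 named members under the alternatives, 325 kept direction and side of the threshold, 54 lost the threshold, 8 gained it and 1 turned sign: the log2 difference of Spint1 with median centring (0.082); centring moves all differences up by 0.29. The replicate numbers shared by the fractions were not used as pairs, because the labels do not say whether they are. For replicate 1 the age labels differ, with 6 weeks in IMCD and 10 weeks in nonIMCD. Same-numbered arrays had deviation correlations of 0.04, 0.035 and 0.061, each the highest for its number. Differently numbered arrays had -0.0363 to -0.0004. Deviations from the mean of a fraction cancel out over its arrays, so these negative values are not separate evidence. The same-numbered values hint at pairs, from the data and not the design. With the replicate number as a block 4824 probe sets and 16 members passed (8 higher and 8 lower); Hpn, Prss22, Serpinb6a and Serpini1 did not. Signal over background limits the 16 members at or under the highest negative control on all arrays.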
